A study of Rattus norvegicus with 18 samples.

Results

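The members described here were the 7 complex I genes that the mitochondrial genome encodes, ND1, ND2, ND3, ND4L, ND4, ND5 and ND6. They were measured in the gastrocnemius muscle of 18 rats. Below, mRNA stands for the counts on the row of a gene, although ND4L and ND4 lie on the same mature mRNA. The members were 7 of the 32883 gene identifiers in the table and 7 of the 13 mitochondrial mRNAs. They were found by position, as the mitochondrial rows over 100 bases long taken in the order in which these genes are known to lie. Of the 15 rows of that length, 1 lay on the minus strand, and it was the row that the order assigns to ND6, the single mRNA encoded on that strand. All 7 members passed the filter on low counts. The rule itself uses position and length and no measured value.

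Complex I is the first enzyme of the respiratory chain. It takes electrons from NADH, hands them to ubiquinone and pumps protons across the inner mitochondrial membrane, and it is built from many subunits encoded in the nucleus together with these core membrane subunits encoded in the mitochondria. Mitochondrial genes have no introns and are transcribed as long RNAs that cover many genes, from which the tRNAs lying between the genes are cut out to release the mRNAs. Muscle depends on this chain for sustained contraction, and gastrocnemius is a mixed muscle of the hind limb that loses mass with age.

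The young group held 6 rats, 6 months old and fed ad libitum (AL). A second group held 6 rats, 28 months old and fed AL. The third held 6 rats of 28 months under caloric restriction (CR), with an intake of 55% of AL from 2 months of age. All were male Brown Norway rats of the substrain BN/SsNOlaHSD. According to the methods of the study, restricted rats received their food in a fixed morning slot, so that the amount and the time of feeding cannot be told apart, and both aged groups are separate animals of a single age. The tissue label was not checked against muscle markers, because the identifiers were not paired with gene symbols.

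Total counts per library ranged from 17335401 to 27432767. The column names tied 15 libraries to a single rat each, whereas the other 3 could only be placed in the aged CR group. They are named by library number as libraries 8826, 8827 and 8828. Library numbers ran in a separate block for each group, and the labels do not say what these numbers record. Anything that went with them cannot be told apart from group. On the first principal component of log2 CPM over all genes tested, rat 8 (aged, AL) lay at 108.9 and library 8828 at 75.5, and the next library at 8.25. The head of the table named the alignment files of 5 of the 6 young rats in another pattern than the rest, and rat 1, the remaining young rat, lay within the range of those 5 for 6 of the 7 members. Reads left on the 2 mitochondrial rRNAs after depletion took 0.341 to 3.10% of counts in young rats, 0.662 to 0.977% in aged rats fed AL and 0.906 to 10.3% in aged CR rats.

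Across all 18 libraries the rows of the complex I genes differed widely in level. Values are CPM (counts relative to the size of the library, after scaling with TMM factors), and were divided by the length of the row in kilobases wherever genes are compared with each other. ND3, a small subunit near the ubiquinone site, was the most abundant member in 18 of 18 libraries, with a mean of 2366 CPM per kb. ND2 followed at 894 and ND4L at 869. The means were 612 CPM per kb for ND1, 595 for ND5 and 329 for ND6. ND4, a large proton-pumping subunit, was lowest at 37.9 CPM per kb. Because ND4L and ND4 lie on the same mature mRNA, the gap between their rows cannot be read as a difference in mRNA level.

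Not every step of this order was the same in every library. ND2 lay above ND4L in 8 of 18 libraries and ND1 above ND5 in 10 of 18, so these neighbours did not differ beyond their spread. ND4L exceeded ND1 in 16 of 18. ND5 exceeded ND6 in all 18, by 1.53 to 2.18-fold, and ND6 exceeded ND4 in all 18, by 5.20 to 13.03-fold. Among the 13 mitochondrial mRNAs ND4 ranked last in every library, and its mean was 0.0512 of the median of the other members. The highest of the 13 was COX1, the catalytic core subunit of complex IV, with a mean of 10634 CPM per kb.

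ND4 lay next to the only mitochondrial rows without counts. The 3 tRNA-sized rows between ND4 and ND5, from 11538 to 11735, had 0 counts in all 18 libraries, which for 3 counts per library as the limit allows 0.0981 to 0.180 CPM, the highest in rat 3. Each of the other 19 short mitochondrial rows had counts in at least 1 library, with medians over the libraries from 0.5 to 2257 counts. Why these rows stood at 0 and ND4 so low was not tested. ND4 shared 7 bases with ND4L, and ND5 shared 23 with ND6 on the opposite strand. The authors counted read pairs without regard to strand. Reads from ND6 and reads from the RNA antisense to it therefore cannot be told apart. With the settings stated, a pair that touched both rows of an overlap was counted for neither.

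**Figure D1:**
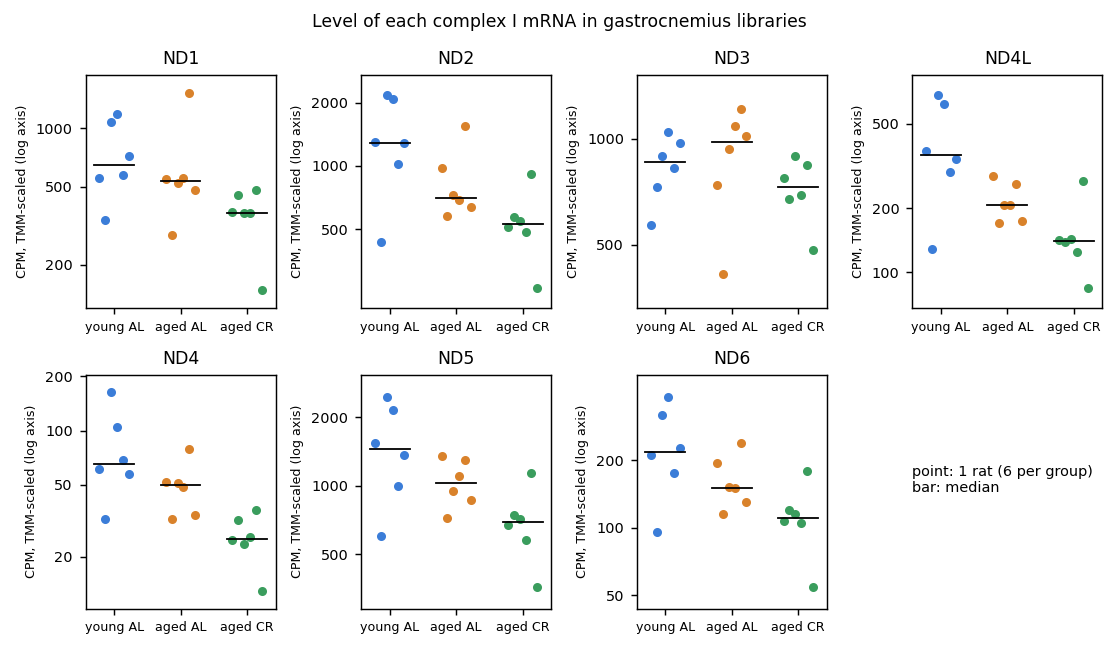
Level of the 7 complex I mRNAs in CPM, TMM-scaled, on log axes that differ between panels. Points are libraries, 6 per group, and bars are group medians. The aged CR median is below both other medians in every panel, ND4 has 5 of 6 aged CR libraries below the lowest young rat, and ND3 shows the groups closest together.

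The 3 groups were compared in pairs, to ask how the mRNAs differ with age under AL feeding, between the diets at 28 months, and between the aged CR and the young group. The last comparison changes age and diet together, and without young CR rats the parts of age and diet in it cannot be told apart. In aged CR rats, 3 of the 7 members (ND2, ND4L and ND4) were lower than in young rats by 2.52 to 3.14-fold. Calls required a fold change of 1.5 or more and an adjusted p no higher than 0.05 in edgeR's quasi-likelihood test, terms on which 1.22% of the 14646 genes tested were called lower. None of the 3 calls was kept when the log2 percent of residual mitochondrial rRNA was added to the fit as a covariate. Over 27 alternative fits, that fit included, the log2 fold changes nearest to no change were -1.17 (ND2), -1.24 (ND4L) and -1.34 (ND4). No member was called in the other 2 comparisons. These are levels in whole muscle, in which fewer cells or mitochondria and less RNA in each cannot be told apart. The 2 comparisons with young rats share those rats, so their values are given side by side and are not independent.

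ND2, ND4 and ND5 are the antiporter-like subunits through which protons cross the membrane. ND2 (ENSRNOG00000031033, MT 3904 to 4942 of Rnor_6.0, plus strand) had 434 to 2176 CPM in young rats (median 1286), 574 to 1547 in aged rats fed AL (median 706) and 262 to 912 in aged CR rats (median 528). All 6 aged CR libraries lay below the young median, although the groups overlapped because rat 2, at 434, was far below the other young rats. The log2 fold change of aged CR against young rats was -1.33 (standard error 0.35, adjusted p = 0.0458). This call was lost when any of 13 single libraries was left out, with adjusted p up to 0.108. It was kept without rat 2, 7, 8 or 11 and without library 8827.

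ND4 (ENSRNOG00000029707, MT 10160 to 11537, plus strand) had 32.3 to 163 CPM in young rats (median 65.2), 32.5 to 79.0 in aged rats fed AL (median 50.2) and 12.9 to 36.5 in aged CR rats (median 25.2). In 5 of 6 aged CR libraries it was lower than in every young rat and every aged rat fed AL, and only library 8827 reached into the other groups. Its log2 fold change against young rats was -1.65 (standard error 0.33, adjusted p = 0.00997), the largest among the members. The call was kept when each of the 18 libraries was left out in turn, with log2 fold changes from -1.82 to -1.34. It was lost with the log2 percent of residual mitochondrial rRNA as a covariate (adjusted p = 0.178). Over 27 alternative fits, that fit included, the log2 fold change nearest to no change was -1.34. These values rested on 394 to 2721 counts per library, the fewest of the 7 members.

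ND5 (ENSRNOG00000029971, MT 11736 to 13565, plus strand) reached the highest count of any member in a single library, 45601. It ranged from 603 to 2457 CPM in young rats (median 1454), from 723 to 1356 in aged rats fed AL (median 1028) and from 359 to 1137 in aged CR rats (median 693). The group medians stepped down in that order and all 3 ranges overlapped. The log2 fold change of aged CR against young rats was -1.12 (standard error 0.30), with an adjusted p of 0.0526, just outside the threshold. ND5 was called when rat 2, rat 8 or library 8827 was left out, with adjusted p down to 0.0142.

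ND4L and ND6 are small subunits of the membrane arm. ND4L lies on the same mature mRNA as ND4, so the calls of ND4L and ND4 are not independent. ND4L (ENSRNOG00000031053, MT 9870 to 10166, plus strand) had 129 to 684 CPM in young rats (median 359), 170 to 283 in aged rats fed AL (median 206) and 84.1 to 269 in aged CR rats (median 140). Every aged rat of either diet lay below the young median, and the single young rat among the aged values was rat 2 at 129. The log2 fold change was -1.44 in aged CR rats (standard error 0.32, adjusted p = 0.0203). Without rat 3 the adjusted p was 0.0559 and without library 8826 it was 0.0538, and no other single library changed the call. In aged rats fed AL the log2 fold change was -0.91 (standard error 0.32, adjusted p = 0.101), and without rat 2 the adjusted p was 0.0247.

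ND6 (ENSRNOG00000029042, MT 13543 to 14061, minus strand) had 96.1 to 385 CPM in young rats (median 218), 116 to 239 in aged rats fed AL (median 151) and 54.4 to 179 in aged CR rats (median 111). Its pattern over libraries was close to those of ND2 and ND5 (Pearson correlation of log2 CPM 0.988 and 0.978). Rat 2 was lowest in the young group and library 8828 lowest in the CR group, as in most members. The log2 fold change of aged CR against young rats was -1.05 (standard error 0.29, adjusted p = 0.0595). As for ND5, leaving out rat 2, rat 8 or library 8827 gave a call, with adjusted p down to 0.0159.

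ND1 and ND3 lie where the membrane arm meets the arm that carries electrons, and ND1 forms much of the channel that ubiquinone enters. ND1 (ENSRNOG00000030644, MT 2740 to 3694, plus strand) had 337 to 1176 CPM in young rats (median 647), 285 to 1504 in aged rats fed AL (median 538) and 149 to 480 in aged CR rats (median 370). The aged rats fed AL held both a low value, in rat 8, and the highest value of all, 1504 in rat 11. Between aged CR and young rats its log2 fold change was -1.02 (standard error 0.37), which was not called (adjusted p = 0.141).

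ND3 (ENSRNOG00000033615, MT 9451 to 9798, plus strand) had 570 to 1045 CPM in young rats (median 860), 412 to 1219 in aged rats fed AL (median 978) and 485 to 894 in aged CR rats (median 732). It was the member in which the groups lay closest together, and the only one with a higher median in aged rats fed AL than in young rats. Its log2 fold change was -0.21 between aged CR and young rats (standard error 0.22, adjusted p = 0.650) and 0.10 between aged and young rats fed AL (standard error 0.22, adjusted p = 0.825). Without rat 11 the latter was -0.00047, so it had no stable sign.

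**Figure D2:**
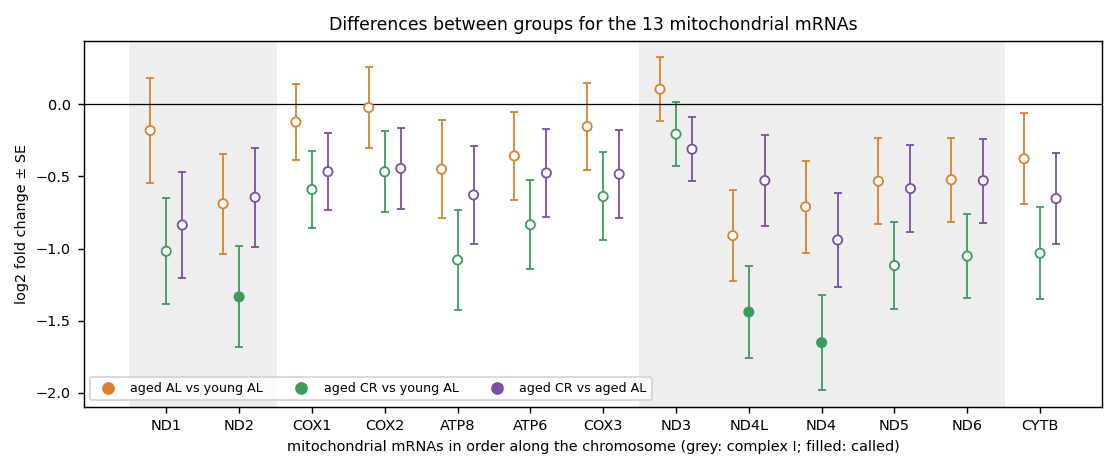
Log2 fold change of the 13 mitochondrial mRNAs, in their order along the chromosome, in the 3 comparisons from edgeR, with bars of 1 standard error, grey bands for the 7 complex I members and filled points for called genes. Member values for aged CR against young rats run from -0.21 (ND3) to -1.65 (ND4), and the aged AL values lie nearer to 0 for all 7 members.

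Against young rats, all 7 members were lower in aged CR rats by sign, with a median log2 fold change of -1.12, where the median over all genes tested was 0.0046. Without adjustment 6 of the 7 had a p under 0.05 in edgeR's test, all but ND3, against 10.1% of all genes tested in the lower direction. DESeq2's Wald test called 5 of the 7, ND2, ND4L, ND4, ND5 and ND6, against 2.46% of genes with an adjusted p called lower by DESeq2. For none of the members did the values of the groups separate fully, as they did in the lower direction for 1.61% of genes. The 6 other mitochondrial mRNAs were also lower by sign, with a median of -0.74 and a range from -1.08 to -0.47, and edgeR called none of them, while 5 had an unadjusted p under 0.05.

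Between aged and young rats fed AL, edgeR called 0 of 7 members, against 1.52% of all genes tested called lower in aged rats. ND4L and ND4 had an unadjusted p under 0.05 (10.6% of all genes did in the lower direction), and DESeq2 called ND4L alone (2.86% of genes were called lower by DESeq2). The groups overlapped for all 7, where 1.11% of genes were separate in the lower direction. The log2 fold change was -0.69 for ND2 (adjusted p = 0.248) and -0.71 for ND4 (adjusted p = 0.198). It was -0.53 for ND5 (adjusted p = 0.305), -0.52 for ND6 (adjusted p = 0.300) and -0.18 for ND1 (adjusted p = 0.814). The median of the 7 was -0.53, beside 0.0071 over all genes tested, and standard errors were 0.22 to 0.36. Single rats moved these values. Without rat 4, ND1 was at -0.0010 and ND6 at -0.33, and without rat 3, ND4 was at -0.39 and ND5 at -0.34. Without rat 11, ND1 was at -0.62. The 6 other mitochondrial mRNAs had a median of -0.26.

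Between the aged groups, edgeR again called 0 of 7 members, against 0.546% of all genes tested called lower under CR, and DESeq2 called 0 (1.28% of genes were called lower by DESeq2). All 7 had lower values under CR by sign, and ND1 and ND4 had an unadjusted p under 0.05 (7.59% of all genes did in that direction). ND4 had the largest difference, at -0.94 on the log2 scale (standard error 0.32, adjusted p = 0.147). In 5 of 6 aged CR libraries ND2, ND4L and ND4 were each lower than in every aged rat fed AL, as were ND5 and ND6 in 4 of 6 and ND1 in 1 of 6, and ND3 in none. ND1 followed at -0.84 (standard error 0.37, adjusted p = 0.278). The other 5 lay between -0.64 and -0.31, with adjusted p from 0.369 to 0.549. Without rat 11, ND1 was at -0.40, ND2 at -0.39 and ND3 at -0.21. No member separated fully, where 0.908% of genes did in the lower direction. The median was -0.58, beside -0.02 over all genes tested and -0.48 over the 6 other mitochondrial mRNAs.

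The 2 libraries that stood apart on the first principal component were also the lowest for these genes in TMM-scaled CPM. Rat 8 had the lowest CPM of the aged rats fed AL in 7 of 7 members, and library 8828 the lowest of the aged CR group in 7 of 7. In young rats, rat 2 had the lowest CPM in 6 of 7. As a percent of mitochondrial counts outside the rRNAs, rat 8 was instead the highest of its group in 5 of 7 members and library 8828 the lowest in 3 of 7, whereas rat 2 was again lowest in 6 of 7. Rat 8 also had the largest TMM factor, 1.44. Without rat 8 and library 8828, edgeR called ND4 (log2 fold change -1.51, adjusted p = 0.0110) and ND4L (-1.31, adjusted p = 0.0270) between aged CR and young rats, whereas ND2 missed the threshold (adjusted p = 0.0509). No member was called without rat 8 and library 8828 in the other comparisons. Between aged CR and young rats that fit called 455 of 14617 genes in either direction, against 290 in the main fit.

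In aged CR rats residual rRNA was higher on average than in both other groups, while the members were lower by sign. The median percent of residual rRNA was 0.824% in aged rats fed AL and 0.876% in young rats, of which rats 1 and 2 had 3.10% and 2.85%. Compared with the aged rats fed AL, the 12S and 16S rRNAs were higher under CR by 4.70 (adjusted p = 0.0219) and 2.61 (adjusted p = 0.0262) on the log2 scale, in libraries from which rRNA had been depleted. Over 2% of counts lay on these 2 rows in rats 1, 2 and 14 and libraries 8826 and 8827. Without these 5 libraries, a setting chosen after the data were seen, ND4 and ND4L were still called between aged CR and young rats. Log2 fold changes were -2.26 for ND4 (adjusted p = 0.0268) and -1.97 for ND4L (adjusted p = 0.0226). ND2 was not called (adjusted p = 0.0552). This setting took out rats 1 and 2 among the young, and rat 14 and libraries 8826 and 8827 under CR. For 6 of 7 members rat 2 had the smallest young CPM. Library 8827 had the largest CPM under CR, also for 6 of 7. Library 8828, with the smallest CPM under CR for every member, stayed in. That fit called 89 of 15238 genes in either direction, against 290 in the main fit. Whether this choice of libraries enlarged the fold changes was not tested. With the log2 percent of rRNA as a covariate, also chosen afterwards, no member was called, and the log2 fold change of ND4 was -1.45 (adjusted p = 0.178). Over 27 alternative fits, that fit included, the values nearest to no change were -1.24 for ND4L and -1.17 for ND2. The share of all genes called in that fit is not given here, so its lack of calls is not read as a result about the members. Beyond these fits the part of residual rRNA in the result was not tested.

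**Figure D3:**
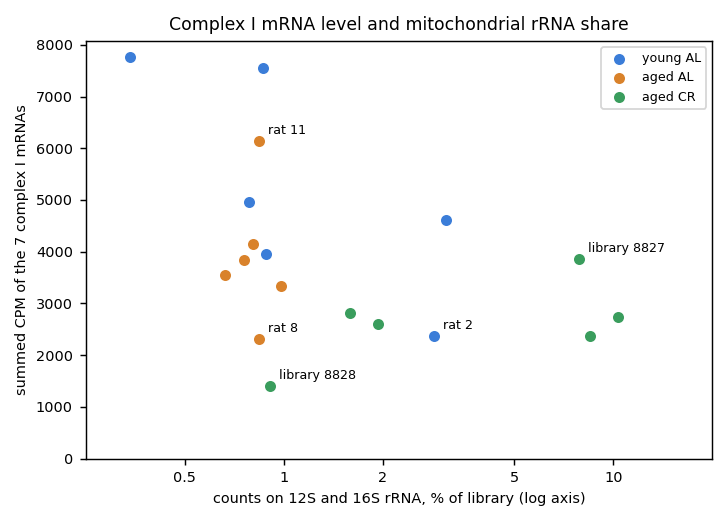
Summed level of the 7 members in CPM, TMM-scaled, against the percent of counts on mitochondrial rRNA (log axis) in each of the 18 libraries, with colours for the groups. Aged rats fed AL all lie below 1% rRNA, whereas aged CR libraries reach 10.3%, and library 8828 has the lowest summed level at 0.906% rRNA.

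To separate the balance among mitochondrial mRNAs from their total, each member was also expressed as a percent of all mitochondrial counts outside the 2 rRNAs. The 7 members together made up 13.3 ± 1.92% in young rats (SD, n = 6), 11.9 ± 1.51% in aged rats fed AL (SD, n = 6) and 10.8 ± 1.36% in aged CR rats (SD, n = 6). Ranges overlapped, at 10.2 to 14.96%, 10.4 to 14.7% and 9.48 to 13.2%. ND5 and ND2 made the largest parts in young rats, at 3.83 ± 0.926% and 3.45 ± 0.899% (SD, n = 6).

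The mean share of ND4 was lower and that of ND3 higher in aged CR than in young rats, neither past the threshold after adjustment. ND4 was 0.202 ± 0.0620% in young rats, 0.154 ± 0.0339% in aged rats fed AL and 0.107 ± 0.0209% in aged CR rats (SD, n = 6 each). All aged CR values lay below all young values (two-sided exact permutation test, p = 0.00216, the smallest that 6 against 6 can give, adjusted p = 0.0844 over 39 tests). ND4 was the only one of the 13 mitochondrial mRNAs whose shares did not overlap in that comparison. ND3 had the opposite sign, with 2.296 ± 0.538% in young rats, 2.76 ± 0.545% in aged rats fed AL and 3.06 ± 0.242% in aged CR rats (SD, n = 6 each), with p = 0.00866 and adjusted p = 0.113 between aged CR and young rats (exact permutation test).

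The other members had smaller mean shares under CR than in the young group. ND2 fell short of the threshold after adjustment, at 2.24 ± 0.486% in aged CR rats (SD, n = 6, exact permutation test, p = 0.0260, adjusted p = 0.157). ND4L was 0.616 ± 0.152% in aged CR rats beside 1.01 ± 0.283% in young rats (SD, n = 6, exact permutation test, p = 0.0281, adjusted p = 0.157). ND1, ND5 and ND6 had adjusted p of 0.207 each. No member passed after adjustment in any comparison. Over 39 exact permutation tests, a lone mRNA at the smallest possible p, 0.00216, has an adjusted p of 0.0844, as ND4 did. A single mRNA could therefore not pass by itself, and no conclusion is drawn from this outcome. In the exact permutation tests an unadjusted p under 0.05 was found for 4 of 7 members between aged CR and young rats, where 6 of all 13 mitochondrial mRNAs had one, for ND4 alone of the 13 between the aged groups (p = 0.0173, adjusted p = 0.157) and for none of the 13 between aged and young rats fed AL. When the rRNAs were kept in the denominator, 6 members passed in each comparison with aged CR rats and ND3 changed sign, so these shares depend on the rRNA rows. By construction, that denominator lowers the share of every mitochondrial mRNA in libraries rich in rRNA. The count over all 13 mRNAs is not given here, so the 6 are not read as a result about the members. The ND3 sign also turned with library counts without the rRNAs as the denominator.

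**Figure D4:**
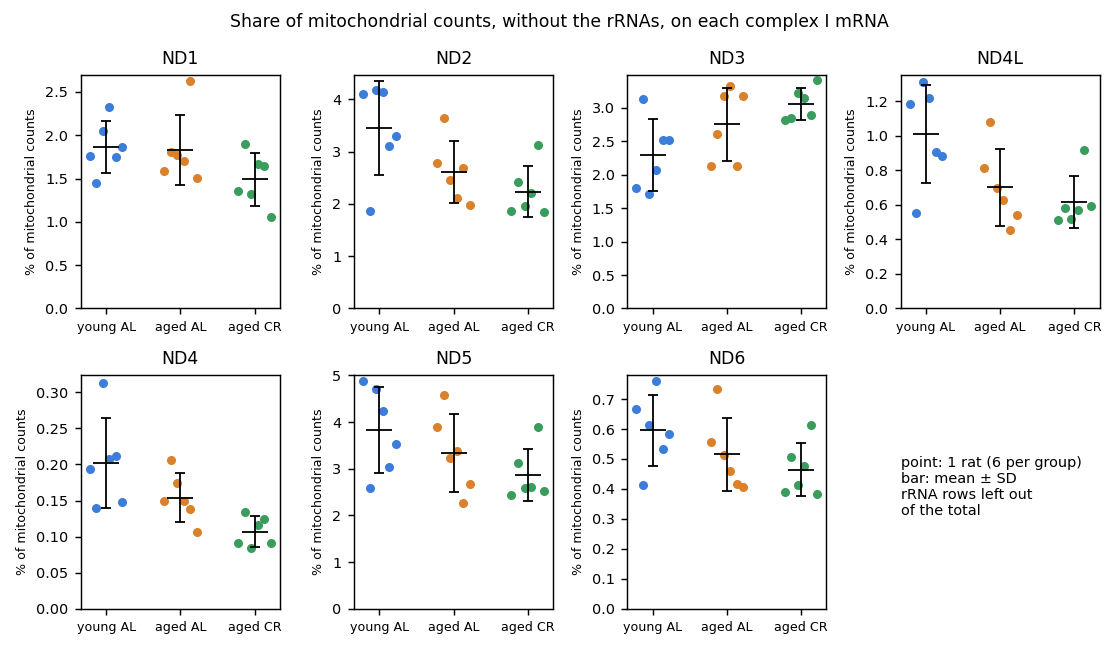
Percent of mitochondrial counts outside the rRNAs on each member, by group. Points are libraries, 6 per group, and bars are means with SD. For ND4 the 6 aged CR values lie below the 6 young values, and for ND3 the means are 2.296% in young rats and 3.06% in aged CR rats, a difference that did not pass after adjustment and changes sign with other denominators.

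Ratios of members that follow each other along the genome show the same data without any scaling between libraries. These 18 tests, 6 neighbouring pairs in 3 comparisons, were chosen after the data were seen, and no adjusted p was below 0.117. ND3 exceeded ND4L per length by 0.98 ± 0.78 on the log2 scale in young rats, 1.77 ± 0.54 in aged rats fed AL and 2.11 ± 0.36 in aged CR rats (SD, n = 6 each). The difference between aged CR and young rats was 1.13 (exact permutation test, p = 0.0152, adjusted p = 0.117). The log2 ratio of ND4 to ND5 was lower in aged CR rats by 0.48 than in young rats (exact permutation test, p = 0.0130, adjusted p = 0.117).

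ND5 and ND6 had log2 ratios of 0.86 ± 0.19 in young rats, 0.87 ± 0.15 in aged rats fed AL and 0.81 ± 0.09 in aged CR rats (SD, n = 6 each), with p from 0.411 to 0.894 before adjustment in the 3 comparisons (exact permutation tests). These genes overlap at their ends on opposite strands and were counted without regard to strand. ND4L and ND4 differed by 4.53 ± 0.29 in young rats, 4.38 ± 0.28 in aged rats fed AL and 4.73 ± 0.28 in aged CR rats (SD, n = 6 each), and ND4L stood 15.3 to 34.1-fold above ND4 per length over the libraries. As both lie on the same mature mRNA, this is a ratio of row counts and not of mRNA levels.

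**Figure D5:**
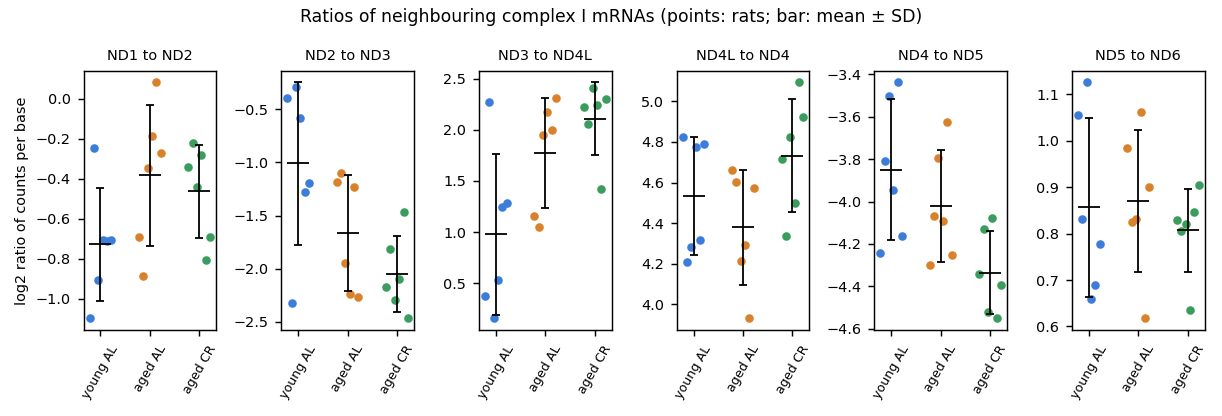
Log2 ratio of neighbouring members, per length, in each library, with 6 libraries per group and bars for the mean with SD, on axes that differ between panels. The ND3 to ND4L ratio runs from 0.16 to 2.27 in young rats and from 1.42 to 2.41 in aged CR libraries, and the ND5 to ND6 ratio lies between 0.62 and 1.13 over all libraries.

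Over the 18 libraries the members other than ND3 moved closely together. The 15 pairs without ND3 had Pearson correlations of log2 CPM from 0.822 to 0.988 (median 0.938), and the 6 pairs with ND3 from 0.417 to 0.731 (median 0.510). The correlation with the mean of the 7 members was 0.99 for ND6 and 0.61 for ND3. CYTB, the mitochondrial subunit of complex III, stood at 0.98 without being a member. ATP6 (0.973) and ATP8 (0.959), also outside the members, stood above the members ND1 (0.949) and ND4L (0.957). COX3, COX1 and COX2 stood lower, at 0.909, 0.868 and 0.834. The close movement was thus not particular to the members. ND3 followed COX2 (r = 0.866) and COX1 (r = 0.860) more closely than any member. All points share the scaling and depth of a library and the differences between groups, so these values are descriptions.

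Among nuclear genes, the 2 with the pattern most like the mean of the members over the 18 libraries were ENSRNOG00000015741 (chromosome 7, 132430853 to 132757558, Pearson r = 0.91, Spearman rho = 0.84) and ENSRNOG00000006136 (chromosome 10, 13451624 to 13515448, r = 0.87, rho = 0.87). The most opposite were ENSRNOG00000039777 (chromosome 3, 7635933 to 7660673, r = -0.86, rho = -0.80) and ENSRNOG00000014051 (chromosome 2, 127986109 to 128002005, r = -0.86, rho = -0.86). Without library 8828 and rat 3, the libraries farthest from the median, the 4 values of r were 0.83, 0.78, -0.82 and -0.75. These genes were picked as the extremes of 14646, and the identifiers carry no symbols. The nuclear-encoded subunits and assembly factors of complex I were not analysed here for the same reason.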

How the data were processed

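Gastrocnemius RNA of 18 rats was sequenced after depletion of rRNA, from strand-specific libraries. The authors aligned reads to Rnor_6.0 with STAR 2.3.0e after trimming with cutadapt 1.2.1 and counted read pairs per gene with featureCounts on an Ensembl annotation, with no strand, multi-mapping or overlap option in the command at the head of the table. The deposited values are whole-number counts, not normalized. In edgeR 4.0.16 (R 4.3.3), filterByExpr left 14646 of 32883 genes, libraries were scaled by TMM and all 18 entered 1 quasi-likelihood fit. Adjusted p-values are Benjamini-Hochberg over all genes tested, and the standard error of a log2 fold change is its size over the square root of F. Log2 CPM used a prior count of 2. For shares and ratios, exact permutation tests were two-sided (6 against 6, no p below 0.00216). Scripts were tested on simulated counts.

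Each member had 394 to 45601 counts per library. Alternatives were DESeq2 1.42.0, other scalings, no filter, only the groups compared, other denominators and leaving out libraries. The members and lists were chosen with earlier results of these data known. All 7 members are named, and outside the mitochondria the 2 highest and 2 lowest correlations with their mean. Lists of nuclear subunits and of tissue and cell type markers were not analysed here, as identifiers were not paired with symbols. Sequences of the members were not used here.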

Additional observations from a re-analysis of the deposited data

Results flagged for a closer look

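In 42 groups of 6 libraries (7 members, 3 groups, level and share), 3 had a highest or lowest library whose gap to its neighbour, relative to the group's range, exceeded Dixon's critical value, where chance gives about 2.1. ND1 in library 8828 was lowest in the aged CR group, at a log2 CPM of 7.22 beside 8.52 in the nearest library (gap 0.769 of the range). The ND1 share of mitochondrial counts in rat 11 was highest among aged rats fed AL, at 2.62% beside 1.81% (gap 0.726). The ND4L share in library 8827 was highest in the aged CR group, at 0.920% beside 0.592% (gap 0.808).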

How the results depend on the processing

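Over 27 alternative fits, the call of ND4 between aged CR and young rats was kept in 26, that of ND4L in 24 and that of ND2 in 9, and all 7 members kept a lower sign in both comparisons with aged CR rats. Between aged AL and young rats, the number of members called was 1 with DESeq2 and 1 without the 5 libraries rich in rRNA, and 0 to 1 when each library was left out. Between aged CR and young rats it was 5 with DESeq2 and 0 with the rRNA covariate. With 1 library left out it was 1 to 5 (1 without rat 3 or library 8826, 5 without rat 2, rat 8 or library 8827). The number of all genes called in either direction moved as well in that comparison. It was 290 in the main fit, 188 without rat 3, 185 without library 8826 and 88 with the rRNA covariate. It was 384 without rat 2, 578 without rat 8 and 703 with DESeq2, but 214 without library 8827. The number of members called thus did not always move with that of all genes. Between the aged groups the number of members called stayed at 0. With the rRNAs in the denominator, 6 members had a different share in each comparison with aged CR rats, and the summed share differed by -5.48 percentage points from young rats and -5.27 from aged rats fed AL. That denominator lowers every mitochondrial mRNA share in libraries rich in rRNA, and the count over all mitochondrial mRNAs is not given here. With library counts without the mitochondrial rRNAs as the denominator the summed share differed by -0.237 points between aged CR and young rats, on a smaller scale by construction. Leaving out 1 library gave summed differences of -1.96 to -1.001 (aged against young, AL), -3.04 to -2.08 (aged CR against young) and -1.55 to -0.526 points (between aged groups). Signs turned for ND3 between aged and young rats fed AL (log2 fold change -0.029 without the rRNA-rich libraries, -0.00047 to 0.26 with 1 library left out). They turned for the ND1 share in that comparison (0.0964 points with rRNAs kept, -0.191 to 0.0592 with 1 library left out). The ND3 share in aged CR rats differed by -0.342 points from young rats and by -0.925 from aged rats fed AL with rRNAs kept, and by -0.00852 and -0.0214 with library counts without the rRNAs. The ND6 share between the aged groups was 0.00892 points without rat 8 and library 8828. Except where the denominator itself changed, the cause was not tested. No paired analysis was possible because no rat number is shared between groups. The fewest counts behind a value were 394, for ND4, whose standard errors (0.32 to 0.33) were not above those of ND1 (0.36 to 0.37).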
